A study of Mus musculus with 5 samples.

Results

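The genes described here encode the machinery with which the endoplasmic reticulum (ER) takes in, folds and ships secreted and membrane proteins. They are 45 genes given as a list: 14 chaperones and folding enzymes, 5 genes of the ER stress response and of ER-associated degradation, 16 genes of translocation and early processing, and 10 genes of ER-to-Golgi transport. Of the 12393 genes with a probe set of their own on the array, 43 are on this list. Sec61g and Tmed2 were measured only by probe sets annotated to several genes, so no value is given for them. All 43 passed the filter on dim genes, and where a gene had several probe sets the brightest on average was used.

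RNA of whole C57BL6J mouse embryos at embryonic day 9.5 was hybridised to 5 Affymetrix Mouse Genome 430A arrays, 2 of Folr1-/- embryos and 3 of Folr1+/+ embryos. Folr1 encodes a folate receptor, and the study asked which transcripts differ between embryos without and with it. The Folr1-/- embryos came from Folr1+/- parents, with dams given a folate-supplemented diet before mating and through gestation; whether the dams of the Folr1+/+ embryos had it is not stated, so a difference in diet, if there was one, cannot be told apart from genotype. Decidua, chorion and amnion were dissected away, while the yolk sac is not mentioned. Arrays are labelled as biological replicates without a word on whether each holds 1 embryo or a pool, so the p-values measure only the spread between these arrays. The values are MAS5 signals, a brightness per probe set on a linear scale, and the number of arrays limits the precision.

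Several array-wide facts bear on every comparison here. The Folr1 probe set did not separate the groups, at 50.2 and 41.8 in the Folr1-/- arrays and 57.05, 50.01 and 40.2 in the Folr1+/+ arrays, and since the deleted stretch of the gene is not known here it checks nothing: the arrays are called by their labels. Correlations of log2 signals over genes were 0.986 between the Folr1-/- arrays, 0.975 to 0.983 among the Folr1+/+ arrays and 0.954 to 0.969 for pairs from different groups. Signals of Xist, the RNA that coats the silenced X of female cells, were 419 and 770.4 in the Folr1-/- arrays, against 24.95 to 35.7 in the Folr1+/+ arrays. The Y-linked genes Eif2s3y and Kdm5d read the other way, with Eif2s3y at 104 and 3.13 in the Folr1-/- arrays against 300.3 to 372 in the Folr1+/+ arrays, and Kdm5d at 25.2 and 0.796 in the Folr1-/- arrays against 89.5 to 120.5 in the Folr1+/+ arrays. Folr1-/- replicate 1 thus had Xist and Y-linked signal together, the labels give no sex, and the sex of the embryos cannot be told apart from genotype in every comparison here. Markers of visceral endoderm, yolk sac and early liver, tissues that secrete serum proteins, were higher in the Folr1-/- arrays for all 15 tested genes of that list, and its summed signal over 16 genes was 17876 and 18017 in the Folr1-/- arrays against 2567 to 3650 in the Folr1+/+ arrays (Ttr and Afp were the brightest of this list). Epithelial markers (brightest Krt8 and Krt18) were higher for 5 of 5 tested genes and summed to 5353 to 6169 in the Folr1-/- arrays, against 1549 to 2221 in the Folr1+/+ arrays. Trophoblast markers (brightest Plac1 and Hand1) were higher for 3 of 3 tested genes, while Tpbpa, Ascl2 and Rhox6 were too dim to be tested. Prl8a2, among those tested, had 143 and 34.6 in the Folr1-/- arrays but only 13.6 to 23.2 in the Folr1+/+ arrays. This list, with its 6 genes, summed to 464 to 579.8 in the Folr1-/- arrays, against 196 to 217 in the Folr1+/+ arrays. Primitive erythroid markers (brightest Hbb-y and Hbb-bh1) were lower for 6 of 7 and summed to 166 to 584 in the Folr1-/- arrays, against 5333 to 6291 in the Folr1+/+ arrays. Neural markers (brightest Sox2 and Nes) were lower for 7 of 7, at 274 to 298 in the Folr1-/- arrays and 1259 to 1316 in the Folr1+/+ arrays. Somite and mesenchyme markers (brightest Col3a1, which was lower, and Twist1, which did not pass) were lower for 6 of 8, at 909.7 to 917 in the Folr1-/- arrays and 1855 to 2009 in the Folr1+/+ arrays. Heart markers (brightest Actc1 and Myh6) were lower for 5 of 8, at 3734 to 4135 in the Folr1-/- arrays and 6002 to 6741 in the Folr1+/+ arrays. Endothelial markers (brightest Kdr and Tek) had 0 of 5 past limma's test, at 1044 to 1099.6 in the Folr1-/- arrays and 888 to 1299.8 in the Folr1+/+ arrays. No marker was at 0. Zic1, Sox10, Slc4a1, Alas2 and Nppa lay under a signal of 16 in both Folr1-/- arrays but not in all Folr1+/+ arrays, and Sox1 and Tpbpa lay under 16 in all 5 arrays. The part of these tissue differences in the results below was not tested. In RNA of whole embryos, fewer cells of a type and less RNA per cell cannot be told apart.

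As background, proteins bound for secretion are targeted to the ER by the signal recognition particle and its receptor, pass through the Sec61 channel, lose their signal peptide to signal peptidase and receive sugar chains from oligosaccharyltransferase. In the ER lumen the Hsp70-type chaperone BiP, the lectin chaperones calnexin and calreticulin and the protein disulfide isomerases fold them, and proteins that fail are sent back to the cytosol for degradation. Folded cargo leaves in COPII-coated vesicles. When unfolded protein builds up, the sensors IRE1, PERK and ATF6 switch on the unfolded protein response, in which XBP1 and ATF6 act through the ER stress response element (ERSE) in chaperone promoters. Visceral endoderm, a tissue specialised for secretion, is known to carry abundant rough ER.

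Promoters of chaperone genes are where the ERSE is known from, so a high share of it among such genes is no new result here. The promoters are shown first, with this element marked. It consists of CCAAT and CCACG with 9 bases between them (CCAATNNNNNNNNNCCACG), searched on both strands of RefSeq promoter windows of assembly GRCm38.p6, which run from 250 bases before to 50 bases after each annotated transcript start. Of the 45 genes 39 had a window there, and Hyou1, Sec61a1, Ssr2, Sec11c, Lman1 and Tmed2 did not. The whole element was present in 7 of these 39 genes (17.9%), against 29 of the 17491 protein-coding genes with a window (0.166%). By role, it was in 6 of 13 chaperone and folding genes (46.2%), 1 of 5 stress response and degradation genes, 0 of 13 translocation genes and 0 of 8 ER-to-Golgi genes. In each line below the element is in capitals, on the strand of the gene and with 10 bases on either side.

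Hspa5 (chr2:34772015-34772053, plus strand): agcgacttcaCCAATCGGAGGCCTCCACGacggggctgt
Hsp90b1 upstream element (chr10:86705628-86705666, minus strand): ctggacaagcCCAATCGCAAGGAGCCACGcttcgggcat
Hsp90b1 downstream element (chr10:86705523-86705561, minus strand): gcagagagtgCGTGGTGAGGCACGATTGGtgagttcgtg
Calr (chr8:84847065-84847103, minus strand): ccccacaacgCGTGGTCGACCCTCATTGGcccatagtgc
Canx (chr11:50325790-50325828, minus strand): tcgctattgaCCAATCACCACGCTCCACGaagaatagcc
Pdia6 (chr12:17266481-17266519, plus strand): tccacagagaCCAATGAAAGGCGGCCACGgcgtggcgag
Dnajc3 (chr14:118937817-118937855, plus strand): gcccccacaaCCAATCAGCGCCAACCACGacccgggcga
Syvn1 (chr19:6046522-6046560, plus strand): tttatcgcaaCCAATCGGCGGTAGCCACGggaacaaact

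The elements began between 212 bases (the upstream one of Hsp90b1) and 44 bases (Syvn1) before the start, and those of Calr and the downstream one of Hsp90b1 read on the opposite strand. The short ends of the element are common by themselves, and both are counted also where they form part of a whole element. CCAAT occurred on either strand in 13 of 13 chaperone and folding genes against 42.3% of all protein-coding genes, and CCACG in 12 of 13 against 40.4%. A related element, ERSE-II (ATTGG, which is CCAAT on the other strand, then 1 base of any kind and CCACG), occurred in Herpud1 and Dnajb11 and in 11 of all 17491 genes (0.0629%). The core of the unfolded protein response element bound by XBP1 and ATF6 (TGACGTGG, whose reverse contains CCACG) occurred in Sec24d and Sec23a and in 144 of all genes (0.823%). These matches are descriptions of letters and do not show binding. The Herpud1 and Sec24d elements are given because they are the only upstream ones of these 2 kinds among the members with a window.

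Herpud1 (chr8:94386367-94386397, plus strand): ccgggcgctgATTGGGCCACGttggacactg
Sec24d (chr3:123267460-123267487, plus strand): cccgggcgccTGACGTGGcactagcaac

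To set a chaperone gene that did not pass the test in the arrays beside 3 members that rose, the 200 bases before the start are given for Hspa5, Dnajc3, Sec24d and Ppib, with every CCAAT and CCACG, on either strand, in capitals.

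Hspa5 (chr2:34771890-34772089, plus strand): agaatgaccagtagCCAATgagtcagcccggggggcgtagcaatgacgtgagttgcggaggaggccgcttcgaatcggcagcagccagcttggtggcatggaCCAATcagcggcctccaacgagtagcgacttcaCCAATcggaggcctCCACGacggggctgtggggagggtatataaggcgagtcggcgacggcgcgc
Dnajc3 (chr14:118937732-118937931, plus strand): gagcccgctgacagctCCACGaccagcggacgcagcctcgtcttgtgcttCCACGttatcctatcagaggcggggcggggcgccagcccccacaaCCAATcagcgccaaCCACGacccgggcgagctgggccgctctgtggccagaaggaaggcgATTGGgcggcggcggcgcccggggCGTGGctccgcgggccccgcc
Sec24d (chr3:123267296-123267495, plus strand): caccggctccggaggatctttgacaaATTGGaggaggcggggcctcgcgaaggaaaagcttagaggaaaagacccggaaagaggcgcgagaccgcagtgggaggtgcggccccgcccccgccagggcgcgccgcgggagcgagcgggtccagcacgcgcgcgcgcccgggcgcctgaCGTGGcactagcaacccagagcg
Ppib (chr9:66059969-66060168, plus strand): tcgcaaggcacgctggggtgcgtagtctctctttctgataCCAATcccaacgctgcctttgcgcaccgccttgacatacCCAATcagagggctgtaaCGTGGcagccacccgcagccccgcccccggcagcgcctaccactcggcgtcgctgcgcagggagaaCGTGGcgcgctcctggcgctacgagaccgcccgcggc

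Dnajc3 carried both ends at the spacing of the element and further copies of each. Ppib carried both ends without that spacing, and Sec24d carried 1 of each, far apart. Of the other members that rose and had a window, Pdia4 had its only CCACG after the start, and Spcs1 had CCACG but no CCAAT. The 3 printed thus do not stand for all members that rose. In the arrays, with the chosen probe sets, 1 of the 7 genes with a whole ERSE passed the test, which was Dnajc3, where 15.0% of all genes tested passed. This count depends on the setting. Hsp90b1 passed on its second probe set and with the mean of its probe sets, and Pdia6 after quantile normalization. The element was in 1 of the 5 members that passed and had a window (20.0%) and in 6 of the 33 that did not pass (18.2%), so the shares were alike and nothing is read from them about the element.

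**Figure D1:**
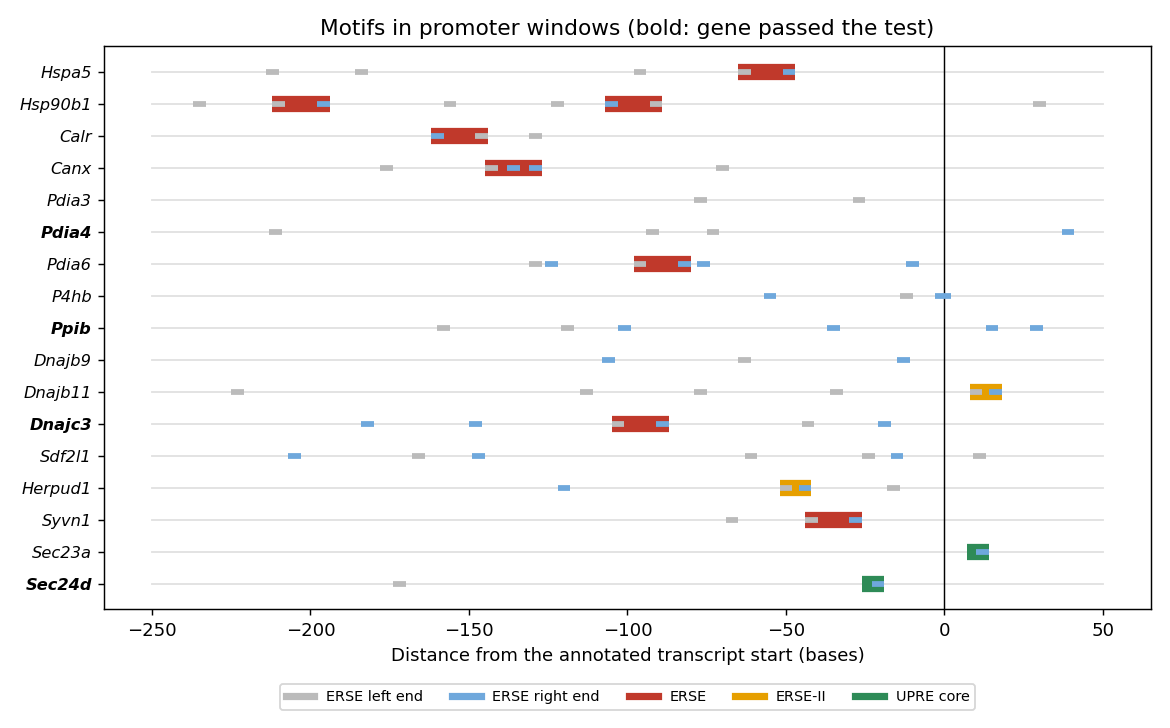
Positions of the searched motifs in the promoter windows of the 13 chaperone and folding genes and of the 4 other members with an ERSE, ERSE-II or unfolded protein response element (UPRE) core. The x axis is the distance in bases from the annotated transcript start, each row is a gene, red, orange and green blocks are whole elements, grey and blue marks are CCAAT (left end of the ERSE) and CCACG (right end) on either strand, and names in bold are genes that passed the test in the arrays; whole ERSE blocks stand in 6 of the 13 chaperone rows and in that of Syvn1, that is in 1 of 5 members that passed and had a window (20.0%) and 6 of 33 that did not pass (18.2%).

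Across the list, 8 of 43 genes were higher in the Folr1-/- arrays and 0 were lower. The 8 were Pdia4, Ppib and Dnajc3 among the folding genes, Sec61a1, Ssr2, Spcs1 and Sec11c among the translocation genes, and Sec24d in ER-to-Golgi transport. Signals were compared as log2(signal + 16) with limma over 7436 genes, and a gene passed at an adjusted p (Benjamini-Hochberg over those genes) under 0.05; fold changes are Folr1-/- minus Folr1+/+ on that scale, given with their standard error (SE), and are too small for dim genes. Over all genes tested 15.0% passed, 8.19% higher and 6.79% lower, so the list's 18.6% is near the background in total, and its calls all lay in 1 direction. At an unadjusted p under 0.05, 9 members were higher and 0 lower. The median log2 fold change was 0.13 over the 43 genes and -0.02 over all genes tested, and 32 of the 43 (74.4%) had a positive fold change against 47.9% of all genes tested. The arrays of the groups did not overlap in 15 members that were higher and 2 that were lower (Ssr1 and Sar1a); of all genes tested 46.7% had no overlap, 22.5% higher and 24.2% lower. The count of 8 was 3 without Folr1-/- replicate 1 (Dnajc3, Sec11c and Sec24d), 5 without Folr1-/- replicate 2 (Ppib, Dnajc3, Ssr2, Sec11c and Sec24d), 5 with no filter and 5 when probe sets of a gene were averaged.

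**Figure D2:**
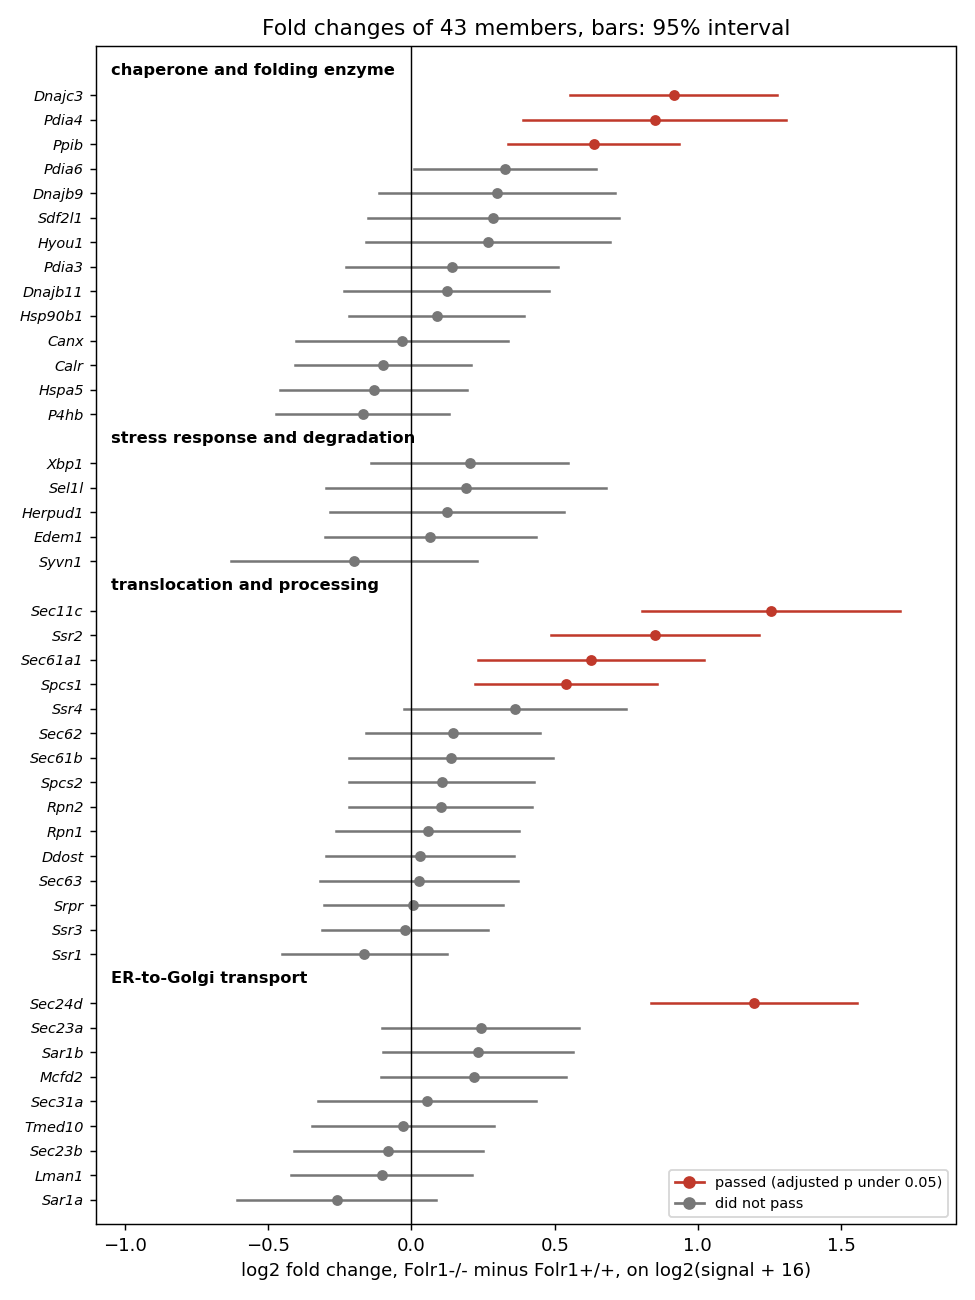
Log2 fold changes of the 43 measured members, grouped by role, Folr1-/- minus Folr1+/+ on the log2(signal + 16) scale (x axis), with limma's 95% interval as a bar. Red marks the 8 genes that passed the test, from Spcs1 at 0.54 to Sec11c at 1.26, and grey the 35 that did not, whose fold changes lie between -0.26 and 0.36.

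Among the chaperones and folding enzymes, 3 of 14 rose (21.4%) and 0 fell, with a median log2 fold change of 0.20. Of all genes tested, 8.19% were higher and 6.79% lower. Dnajc3, a J-domain co-chaperone of BiP that also inhibits PERK, had a signal of 254 and 257 in the Folr1-/- arrays and 138, 133 and 113 in the Folr1+/+ arrays. Its Folr1-/- signals nearly coincided and lay well above all Folr1+/+ signals, a log2 fold change of 0.92 ± 0.17 (SE, limma adjusted p = 0.00339), or 1.89-fold. Pdia4, a disulfide isomerase found with BiP in chaperone complexes, had a signal of 182 and 149 in the Folr1-/- arrays and 103, 62.3 and 92.4 in the Folr1+/+ arrays. The groups did not overlap, though each spread more than for Dnajc3 (0.85 ± 0.21, limma adjusted p = 0.0187). Ppib, the prolyl isomerase cyclophilin B, which acts on collagen among other cargo, had a signal of 2707 and 2668 in the Folr1-/- arrays and 1662, 1643 and 1872 in the Folr1+/+ arrays. All Folr1-/- signals were again above all Folr1+/+ signals (0.64 ± 0.14, limma adjusted p = 0.00903). The call of Pdia4 was lost without Folr1-/- replicate 1 (0.72) or 2 (0.98). It was also lost with no filter (limma adjusted p = 0.062) and with the mean of its probe sets (0.43, 0.0918). That of Ppib was lost without Folr1-/- replicate 1 (0.63) and that of Dnajc3 with the mean of its probe sets (0.46, 0.0698). Each of these 2 means takes in a probe set too dim to be tested, which lowers the fold change. Its signals were 3.17 to 6.56 for Dnajc3 and 8.16 to 17.6 for Pdia4.

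**Figure D3:**
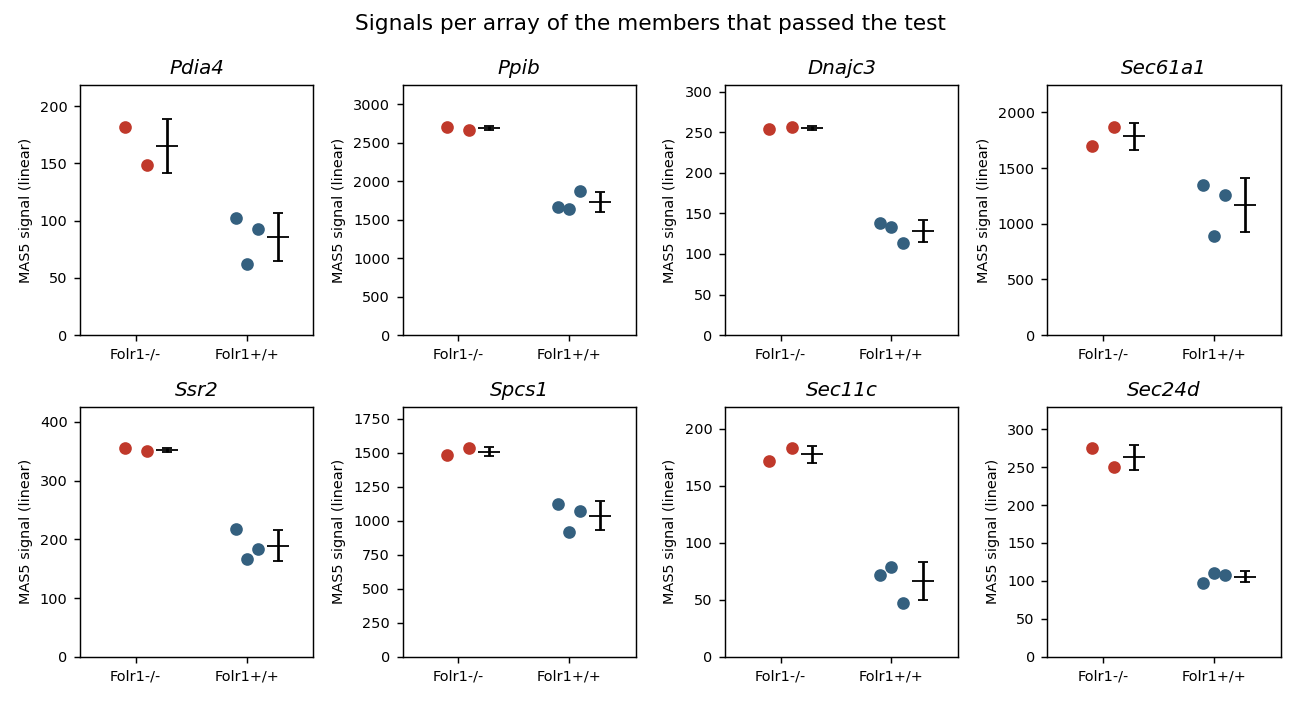
MAS5 signals on a linear scale (y axis, from 0) of the 8 members that passed the test, with a point for each of the 2 Folr1-/- arrays (red) and the 3 Folr1+/+ arrays (blue) and, beside them, the mean and SD. In every panel both Folr1-/- points lie above all 3 Folr1+/+ points.

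The main chaperones did not pass the test. Hspa5, which encodes BiP, had a signal of 6758 and 6244 in the Folr1-/- arrays and 7124, 8168 and 6207 in the Folr1+/+ arrays. The groups overlapped, and the fold change of -0.13 ± 0.15 (SE) had a 95% interval of -0.46 to 0.19. For this probe set the interval leaves out an increase of the size seen for Dnajc3. A dimmer probe set of Hspa5, described further on, had 0.33 ± 0.14, outside that interval, and did not pass. Over the 16 alternative settings the fold change of Hspa5 lay between -0.23 and 0.16, with the opposite sign in 2. Calr and Canx, the genes of calreticulin and calnexin, had fold changes of -0.10 ± 0.14 and -0.03 ± 0.17, with intervals of -0.41 to 0.21 and -0.40 to 0.34. P4hb, a disulfide isomerase and a subunit of collagen prolyl hydroxylase, had a signal of 4303 and 4143 in the Folr1-/- arrays and 4279, 5036 and 4979 in the Folr1+/+ arrays (-0.17 ± 0.14). Hsp90b1, the Hsp90-type chaperone of the ER, had a signal of 1247 and 1405 in the Folr1-/- arrays and 1265, 1294 and 1175 in the Folr1+/+ arrays with the chosen probe set (0.09 ± 0.14, adjusted p = 0.714). A different probe set of Hsp90b1 did separate the groups, and is described with the other probe sets further on.

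Of the remaining folding genes, Pdia6, a disulfide isomerase that binds BiP and IRE1, came closest to the threshold. It had a signal of 3652 and 3318 in the Folr1-/- arrays and 2868, 3028 and 2455 in the Folr1+/+ arrays. The groups did not overlap, and the fold change was 0.33 ± 0.14 (SE, limma adjusted p = 0.154, and 0.0464 after quantile normalization). Dnajb9, a J-protein co-chaperone of BiP and a target of XBP1, had a signal of 133 and 153 in the Folr1-/- arrays and 94.3, 111 and 136 in the Folr1+/+ arrays, so that 1 Folr1+/+ signal lay between the Folr1-/- signals (0.30 ± 0.19). Sdf2l1, a partner of the co-chaperone Dnajb11, had 68.3 and 61.0 in the Folr1-/- arrays and 56.4, 40.2 and 54.9 in the Folr1+/+ arrays (0.29 ± 0.20). Hyou1, a nucleotide exchange factor for BiP, had 223 and 314 in the Folr1-/- arrays and 264, 201 and 194 in the Folr1+/+ arrays, with groups that overlapped (0.27 ± 0.19). Pdia3, the disulfide isomerase that works with calnexin and calreticulin, and Dnajb11 had fold changes of 0.14 ± 0.17 and 0.12 ± 0.16.

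None of the 5 genes of the stress response and of degradation passed limma's test, either way, where 15.0% of all genes tested passed. At an unadjusted p under 0.05 the count was also 0, where 30% of all genes tested lay under it. In all 5 the groups overlapped, where 46.7% of all genes tested had no overlap. With only 5 genes, nothing is read from these counts. The median log2 fold change of the 5 was 0.13 (-0.015 without Folr1-/- replicate 2, so its sign is not settled). Xbp1, the transcription factor activated by IRE1 through splicing of its mRNA, had a signal of 959 and 911 in the Folr1-/- arrays and 709.5, 788 and 951 in the Folr1+/+ arrays (0.20 ± 0.16, SE, adjusted p = 0.422). Spliced and unspliced Xbp1 mRNA were not told apart here, and a dimmer probe set of Xbp1, fitted alone, had a fold change of -0.48 ± 0.18 (adjusted p = 0.124). Syvn1, the ubiquitin ligase of ER-associated degradation, had 60.4 and 80.1 in the Folr1-/- arrays and 78.5, 96.3 and 73.7 in the Folr1+/+ arrays (-0.20 ± 0.20, adjusted p = 0.535). Sel1l, its partner, had 59.9 and 52.4 in the Folr1-/- arrays and 40.1, 65.8 and 38.9 in the Folr1+/+ arrays (0.19 ± 0.22, adjusted p = 0.616). Herpud1, a stress-induced gene of the same complex, had 85.9 and 108 in the Folr1-/- arrays and 86.0, 78.2 and 98.2 in the Folr1+/+ arrays (0.13 ± 0.19, adjusted p = 0.698), and Edem1, which hands misfolded glycoproteins to degradation, had a fold change of 0.07 ± 0.17. The widest of their 95% intervals, that of Sel1l, ran from -0.30 to 0.68.

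Among the translocation and processing genes, 4 of 15 rose (26.7%, against 8.19% of all genes tested) and 0 fell, with a median log2 fold change of 0.11. Sec11c, a catalytic subunit of signal peptidase, had a signal of 172 and 183 in the Folr1-/- arrays and 72.2, 79.2 and 47.4 in the Folr1+/+ arrays. Each Folr1-/- signal was more than every Folr1+/+ signal, a log2 fold change of 1.26 ± 0.21 (SE, limma adjusted p = 0.00188), or 2.39-fold, the highest among the members. Ssr2, a subunit of the translocon-associated protein (TRAP) complex beside the Sec61 channel, had 355 and 350.5 in the Folr1-/- arrays and 218, 166 and 184 in the Folr1+/+ arrays (0.85 ± 0.17, adjusted p = 0.00537). Sec61a1, the pore subunit of the channel, had 1697 and 1872 in the Folr1-/- arrays and 1351, 889.6 and 1260.4 in the Folr1+/+ arrays, with the lowest signal in Folr1+/+ replicate 2 (0.63 ± 0.18, adjusted p = 0.0373). Spcs1, a small subunit of signal peptidase, had 1487 and 1533 in the Folr1-/- arrays and 1125, 917 and 1072 in the Folr1+/+ arrays (0.54 ± 0.15, adjusted p = 0.0281).

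The calls of Sec11c and of Sec24d, described below, held in all 16 alternative settings, while those of Sec61a1 and Spcs1 were fragile. Both were lost without Folr1+/+ replicate 2 (0.45 for each), Folr1+/+ replicate 3 (0.69 and 0.56), Folr1-/- replicate 1 (0.70 and 0.56) or Folr1-/- replicate 2 (0.56 and 0.52), with adjusted p from 0.0603 to 0.186, and with no filter, no intensity trend or the mean of probe sets, and Ssr2 lost its call without Folr1-/- replicate 1 (0.84, adjusted p = 0.0609). Some partners of these genes did not pass the test, though Sec11c and Spcs1, both of signal peptidase, did. Sec11a, the alternative catalytic subunit of signal peptidase, named after its values were seen, had a fold change of 0.20 ± 0.16, and Spcs2, another subunit, 0.11 ± 0.15. Of the other TRAP subunits, Ssr1 had -0.16 ± 0.13 and Ssr3 -0.02 ± 0.13, neither of which passed. Whether these subunits differ from Sec11c and Ssr2 in their change was not tested.

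Ssr4, the remaining TRAP subunit and the only X-linked member, had a signal of 204 and 177 in the Folr1-/- arrays and 164, 149 and 123 in the Folr1+/+ arrays. The groups did not overlap but the gene did not pass (0.36 ± 0.18, SE, adjusted p = 0.196), and Xist differed between the same arrays. Ssr1 had 1742 and 1737 in the Folr1-/- arrays and 1921, 1924 and 2011 in the Folr1+/+ arrays, so that both Folr1-/- signals were the lower ones (adjusted p = 0.441). Sec62, which works with Sec63 in the import of finished chains, had 1386 and 1346 in the Folr1-/- arrays and 1157, 1225 and 1326 in the Folr1+/+ arrays (0.14 ± 0.14, adjusted p = 0.519). Sec61b, a small subunit of the channel, had 744 and 564 in the Folr1-/- arrays and 535, 610.2 and 620.2 in the Folr1+/+ arrays, with the Folr1+/+ signals in between or lower (0.14 ± 0.16). The oligosaccharyltransferase genes Rpn1, Rpn2 and Ddost had fold changes of 0.06 ± 0.15, 0.10 ± 0.15 and 0.03 ± 0.15 with the chosen probe sets. Other tested probe sets of Rpn1 and Sec62 had larger fold changes and are described further on. Those of Sec63 and of Srpr, a subunit of the receptor for the signal recognition particle, were 0.03 ± 0.16 and 0.01 ± 0.14. For Srpr the 95% interval ran from -0.31 to 0.32.

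In ER-to-Golgi transport, 1 of 9 genes rose (11.1%, against 8.19% of all genes tested) and 0 fell, with a median log2 fold change of 0.06. Sec24d, which selects cargo for the inner COPII coat, had a signal of 275 and 251 in the Folr1-/- arrays and 97.9, 111 and 108 in the Folr1+/+ arrays. The groups were far apart relative to their spread, with a log2 fold change of 1.20 ± 0.16 (SE, limma adjusted p = 0.000572), or 2.29-fold. It has the lowest adjusted p of the members. Its promoter has an upstream UPRE core, but Sec61a1, Ssr2 and Sec11c, which also passed, had no window to search. Sec23a, which did not pass, has a core after the start, and no link between core and change was tested. The other inner coat genes, Sec23a and Sec23b, had fold changes of 0.24 ± 0.16 and -0.08 ± 0.15, and Sec31a of the outer coat 0.06 ± 0.17. Sec23a had 437 and 413 in the Folr1-/- arrays and 316, 399 and 359.5 in the Folr1+/+ arrays, without overlap.

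The 2 genes of the SAR1 GTPase, which starts coat assembly, had fold changes of opposite sign. Sar1a had a signal of 1905 and 1795 in the Folr1-/- arrays and 1981, 2678 and 2057 in the Folr1+/+ arrays (-0.26 ± 0.16, SE, limma adjusted p = 0.296). Sar1b, whose loss in humans causes chylomicron retention disease, had 768 and 659.9 in the Folr1-/- arrays and 651, 545 and 621 in the Folr1+/+ arrays (0.23 ± 0.15, adjusted p = 0.336). In neither did the groups overlap, neither passed, and the difference between them was not tested. Mcfd2 and Lman1, which form the cargo receptor for coagulation factors, had fold changes of 0.22 ± 0.15 and -0.10 ± 0.14. Dimmer tested probe sets of Lman1, fitted alone, had 0.44 ± 0.17 and 0.32 ± 0.18 (limma adjusted p = 0.127 and 0.284). Neither passed, but in both all Folr1-/- signals were the higher ones, so the direction for Lman1 depends on the probe set. Mcfd2 had 521 and 612 in the Folr1-/- arrays and 494, 472 and 485 in the Folr1+/+ arrays, with both Folr1-/- signals the higher ones. Tmed10, a p24 cargo receptor, had a fold change of -0.03 ± 0.15.

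Several members were covered by more than 1 probe set, which bear on the choice of the one with the highest mean signal. With every single-gene probe set fitted as a row of its own, an alternative chosen after seeing the data, 15 of 83 tested probe sets of the members were higher (18.1%) and 1 was lower, against 6.31% higher of all 12228 probe sets tested. Of the genes on the list, 11 then had a probe set that was higher. Hsp90b1, Rpn1, Sec62 and Sec61a1 were among them on a probe set other than the chosen one alone. The second probe set of Hsp90b1 had a signal of 969 and 794 in the Folr1-/- arrays and 367, 402 and 424 in the Folr1+/+ arrays (1.11 ± 0.16, SE, limma adjusted p = 0.00135), while the chosen one had a fold change of 0.09. With the mean of both, Hsp90b1 passed (0.60, adjusted p = 0.0114). A probe set of Sec62 had 83.4 and 73.8 in the Folr1-/- arrays and 38.9, 28.7 and 43.8 in the Folr1+/+ arrays (0.84 ± 0.20, adjusted p = 0.0234). A further one of Sec62 had 0.57 ± 0.18 and did not pass (adjusted p = 0.0625). A probe set of Rpn1 had 1987 and 1616 in the Folr1-/- arrays and 1328, 1258 and 1185 in the Folr1+/+ arrays (0.51 ± 0.15, adjusted p = 0.0499). Further ones of Rpn1 had 0.49 ± 0.19, 0.30 ± 0.14 and 0.15 ± 0.14 and did not pass. The chosen probe set of Rpn1, at 0.06, thus had the lowest fold change of that gene's probe sets. The second probe set of Hspa5 had 1104 and 1088 in the Folr1-/- arrays and 949, 863 and 807 in the Folr1+/+ arrays, without overlap but not past the threshold (0.33 ± 0.14, adjusted p = 0.171).

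For 3 genes that rose, further probe sets passed as well. A second probe set of Ppib had a fold change of 0.65 ± 0.15 (SE, limma adjusted p = 0.0224), a second of Spcs1 0.58 ± 0.16 (adjusted p = 0.0447), and a pair of others of Dnajc3 0.65 ± 0.19 and 0.62 ± 0.17 (adjusted p = 0.0473 and 0.0389). A further tested probe set of Dnajc3 had 0.21 ± 0.22 and a further dim one of Spcs1 had -0.08 ± 0.25, and neither passed. For Sec61a1, another probe set passed when fitted alone (0.70 ± 0.17, limma adjusted p = 0.0218). Further ones had fold changes of 0.30 ± 0.24, 0.27 ± 0.31 and -0.48 ± 0.25 and did not pass. Ssr4 had a dim probe set that was lower, with 18.8 and 21.3 in the Folr1-/- arrays and 39.6, 57.9 and 38.3 in the Folr1+/+ arrays (-0.75 ± 0.22, adjusted p = 0.0486), against 0.36 for the chosen one, so the direction for Ssr4 depends on the probe set. The 3 probe sets of Calr and the 3 of Canx had fold changes of -0.10 to 0.02 and of -0.03 to 0.09, and none passed. Which stretch of the transcript each probe set reads was not examined. RNA amplified in 2 rounds, as here, favours the 3' ends of transcripts. The Actb 3'/5' signal ratio was 30.5 and 22.8 in the Folr1-/- arrays and 21.1, 39.5 and 29.1 in the Folr1+/+ arrays.

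**Figure D4:**
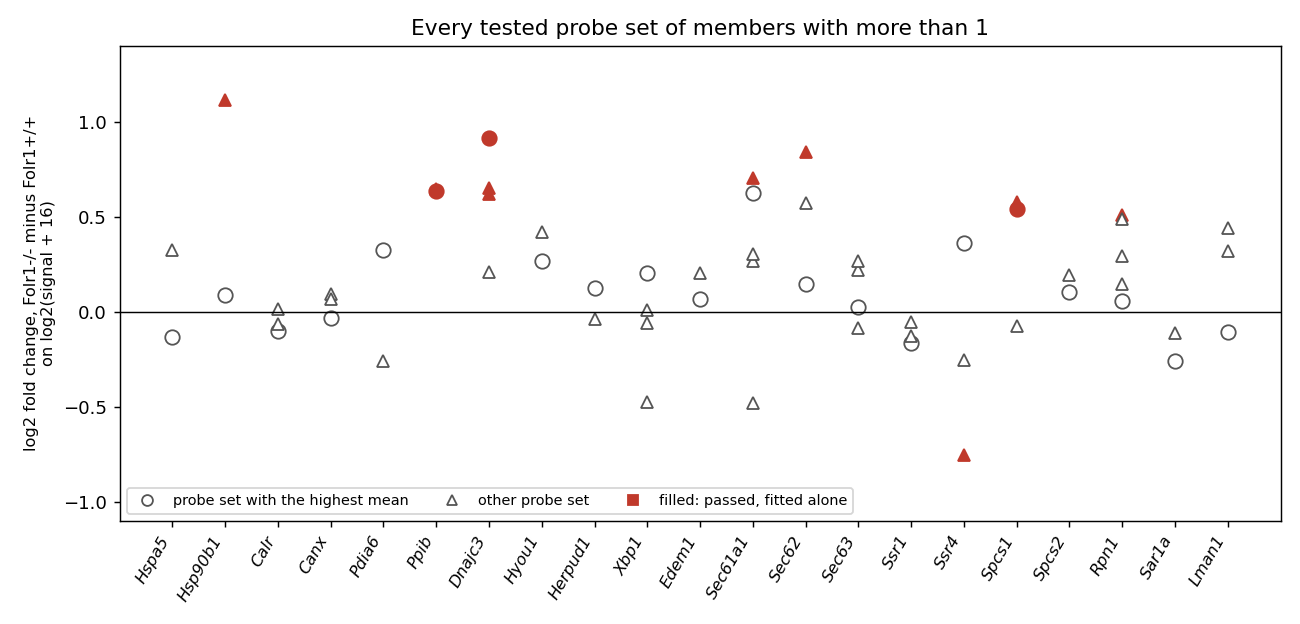
Log2 fold changes (y axis, Folr1-/- minus Folr1+/+ on the log2(signal + 16) scale) of every tested probe set of the 21 members with more than 1. Circles are the probe set with the highest mean signal, triangles the others, and filled symbols passed the test when each probe set was fitted alone; the triangles of Hsp90b1 and Sec62 lie far above their circles.

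Other genes of the pathway and of related chaperone systems were taken from 5 lists with 95 tested genes, of which 8 were higher in the Folr1-/- arrays and 0 lower (23 and 4 at an unadjusted p under 0.05). ER stress sensors and targets had 2 of 15 higher (13.3%) with a median log2 fold change of 0.27. These were Selenos and Derl2, both of the channel complex of ER-associated degradation, at 0.78 ± 0.17 and 0.76 ± 0.16 (SE, limma adjusted p = 0.0106 and 0.00789). The other folding and glycan-trimming enzymes had 1 of 17 higher, the prolyl isomerase gene Fkbp2, at 0.80 ± 0.19 (adjusted p = 0.0135), with a median of 0.24. The other targeting and glycosyltransfer genes had 1 of 15 higher, the oligosaccharyltransferase gene Dad1, at 0.72 ± 0.15 (adjusted p = 0.00767), with a median of 0.09. Among the other coat and cargo receptor genes 3 of 28 were higher, with a median of 0.26.

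The largest of these 3 was Kdelr3, a receptor that returns escaped chaperones to the ER, which had a signal of 92.0 and 111 in the Folr1-/- arrays and 25.9, 9.02 and 43.6 in the Folr1+/+ arrays. The groups did not overlap, its Folr1+/+ signals were dim, and its fold change was 1.56 ± 0.31 (SE, limma adjusted p = 0.00554). Tmed3, a p24 cargo receptor, and Sec22b, a vesicle SNARE, had fold changes of 0.86 ± 0.20 and 0.57 ± 0.16 (adjusted p = 0.0154 and 0.0347). Chaperones of the cytosol and mitochondria, a list outside the ER, had 1 of 20 higher, Hspe1 at 0.50 ± 0.15 (adjusted p = 0.042), and 0 lower, with 4 lower at an unadjusted p under 0.05, and a median of -0.11. With Folr1-/- replicate 1 left out, 0 of the 8 calls on the 5 lists remained, with 13 genes higher and 3 lower at an unadjusted p under 0.05, and without Folr1-/- replicate 2 there were 5 calls. These shares lie around the 8.19% of all genes tested that were higher, and nothing particular to a list is read from them.

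**Figure D5:**
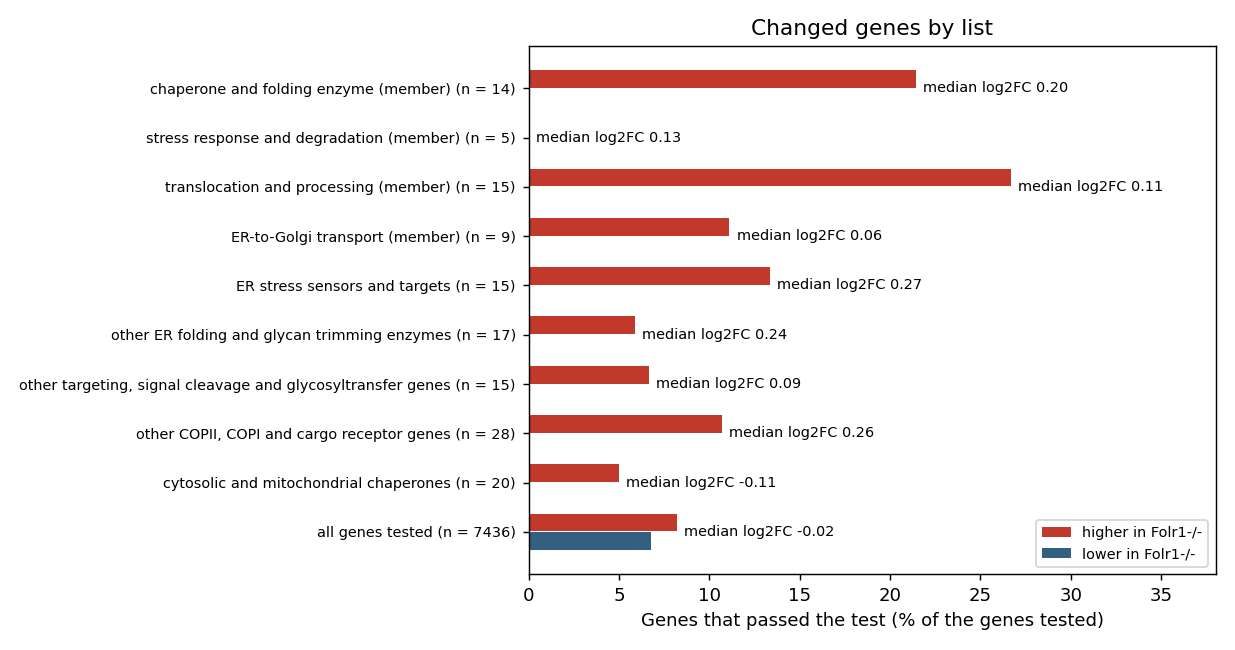
Share of the tested genes in each list that passed the test (x axis, percent), higher (red) or lower (blue) in the Folr1-/- arrays, for the 4 roles of the members, the other lists and all genes tested, with the number tested and the median log2 fold change in each row. Among the lists no blue bar is seen, and translocation and chaperone members have the longest red bars, at 26.7% and 21.4%, against 8.19% of all genes tested.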

How the data were processed

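Per the submitters' processing notes, the authors made the deposited signal intensity values with MAS5 (version unknown here); they are linear, on a scale that gave every array about the same 2% trimmed mean (150.06 to 150.07). RNA had been amplified in 2 rounds, per the labels' protocols. Of 22690 probe sets, 64 were controls, 20380 carried 1 gene symbol, 691 several and 1555 none in the platform annotation, and only those with 1 symbol were named. From the deposited signals log2(signal + 16) was computed here. The probe set with the highest mean stood for its gene, and genes under the 40th percentile of mean signal were left out, which left 7436 of 12393. Folr1-/- and Folr1+/+ arrays were compared with limma 3.58.1 in R 4.3.3 (lmFit, eBayes with an intensity trend, 3 residual degrees of freedom, Benjamini-Hochberg over all genes tested, threshold 0.05), after the code was tested on simulated data.

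The members, gene lists and tests were chosen with earlier results of these data known. Named are all members, with array values for those that passed and for up to 4 others per role by smallest unadjusted p, and up to 3 genes per other list that passed. Hspa5, Hsp90b1 and P4hb are given in addition, chosen after their values were seen. The 16 alternative settings changed the scaling, pseudocount, filter, probe set rule, trend, array weights, Actb 3'/5' ratio as a covariate, replicate block and each array left out. Promoter windows came from RefSeq (GRCm38.p6).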

Additional observations from a re-analysis of the deposited data

How the results depend on the processing

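Over all genes tested the count of 1114 fell to between 369 and 1007 when 1 array was left out (369 and 664 when this was Folr1-/- replicate 1 or 2, and 636 when it was Folr1+/+ replicate 3). Without a filter it was 747, and with each probe set fitted alone, an alternative chosen after seeing the data, 1218 genes had a probe set that passed. Median centring of the arrays gave 769 higher and 341 lower genes (69.3% higher), against 609 and 505 (54.7% higher), and moved the median of all genes by 0.09. Of the members, 6 to 8 passed with 1 Folr1+/+ array left out, and fewer with 1 Folr1-/- array left out. With no filter 5 passed, and 5 with the mean of probe sets (4 of them shared with the 8). With each probe set fitted alone, 12 had a probe set that passed, 11 of them higher and 1 lower (Ssr4). In each of the 16 alternative settings, which leave out that fit, 0 members were lower. On the 5 other lists, 14 genes passed with median centring, 5 with no filter and 0 to 11 with 1 array left out. For these changes of count the cause was not tested.

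The median log2 fold change of the chaperones was 0.14 after a filter at the 60th percentile, 0.30 after centring on the median, 0.13 with the mean of probe sets, 0.15 with a pseudocount of 64 and 0.17 to 0.24 with 1 array left out. That of the translocation genes was 0.15 with the Actb ratio as a covariate, 0.14 with the mean of probe sets, 0.20 with median centring and 0.039 to 0.19 with 1 array left out. That of the stress response and degradation genes was 0.045 with the mean of probe sets, 0.22 with median centring and -0.015 to 0.15 with 1 array left out. That of the ER-to-Golgi genes was -0.0051 with the Actb ratio, 0.015 with array weights, 0.13 with the mean of probe sets, 0.15 with median centring, 0.0047 with quantile normalization and -0.072 to 0.14 with 1 array left out, so the sign of these last 2 medians is not settled. The cause was not tested.

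The replicate numbers are shared by the groups, but deviations of same-numbered arrays correlated at 0.02 and -0.06, so the numbers are not taken as pairs. With the replicate number as a block, 899 genes and 7 members passed (Spcs1 did not, with 0.56 and an adjusted p of 0.0567), and the median was 0.17 for the chaperones and 0.10 for the ER-to-Golgi genes. Groups of 2 and 3 arrays limit the precision throughout.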
